A study of Mus musculus with 2 samples.

Results

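*Gli1*, *Itga8*, *Nox4* and *Snai2* are 4 of the 479 genes of a Xenium In Situ panel, a method that counts transcripts in place by imaging hybridized probes in a tissue section. They were selected on measured values of these sections, as genes with a high level in fibroblasts, so that high level is described here and supports nothing. Each section was from a mouse lung with small cell lung cancer (SCLC), 1 section for each of 2 genotypes, both from a single FFPE block. RPR2 mice carried floxed *Rb1*, *Trp53* and *Rbl2* alleles, deleted by adenoviral Cre instilled into the trachea at 10 weeks of age, and were wild-type for *Cracd*. CRPR2 mice carried the same floxed alleles, with the same Cre, on a germline *Cracd* knockout (KO), so in CRPR2 the stromal cells lacked *Cracd* as well as the tumor cells. In both genotypes the other 3 genes were deleted only in cells that took up the virus. The promoter driving Cre in these mice was not settled by the sources, which name different viruses. Per the methods, lungs of both genotypes were collected at the same set time, some months after Cre. The study used males and females, but the sex of each section's mouse was not given in the sources used here.

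*Gli1* encodes a transcription factor of the hedgehog pathway, and is itself switched on by the hedgehog signal. In the lung it is known from mesenchymal cells around airways and vessels, while the ligand is made mostly by epithelium. *Itga8* encodes integrin alpha 8, a matrix receptor of alveolar fibroblasts and smooth muscle, *Nox4* an oxidase that makes hydrogen peroxide and is induced by TGF-beta in myofibroblasts, and *Snai2* the repressor Slug, which acts in epithelial-mesenchymal transition (EMT).

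The RPR2 section held 154818 segmented cells with 16313950 gene transcripts and the CRPR2 section 342845 cells with 37348565, at medians of 100 and 101 transcripts per cell. The sections shared 8 cell names. Negative control probes reached at most 9.93 CPM, the transcripts of a gene per 1000000 gene transcripts. Levels below are CPM over all cells of a class, with 95% intervals in parentheses that cover counting error only. There is 1 section per genotype, so no test was run and no difference between sections has a replicate check. Repeats on other tumor samples, which a legend of the paper mentions, were not analysed here. Probe numbers differ between genes, so a level is compared only across cells or sections for the same gene.

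Cells were put into classes by counts of marker transcripts, none of which came from the 4 genes. Fibroblasts needed at least 4 transcripts of *Col1a1*, *Lum*, *Dpt*, *Pi16*, *Mfap4*, *Mfap5* and *Ccdc80*, mural cells at least 4 of 8 pericyte and smooth muscle genes such as *Rgs5*, *Myh11* and *Cnn1*, and tumor cells at least 4 of the neuroendocrine genes *Chga*, *Chgb*, *Scg5*, *Snap25* and *Celf3*. This gave 12487 fibroblasts, 8874 mural cells and 13782 tumor cells in RPR2, and 16071, 6055 and 160674 in CRPR2. Fibroblasts made up 8.97% and 8.93% of the cells that were not tumor cells. Tumor cells made up 9.01% of all cells in RPR2 and 47.2% in CRPR2. The part of this difference in the differences between sections was not tested. Of the 10 genes that led the fibroblasts over the mean of the other classes, 4 were fibroblast markers in each section. Genes of fat cells (*Car3* in both sections, *Pck1* in RPR2 and *Retn* in CRPR2) were also among them. At least 2 transcripts of *Car3*, *Pck1* and *Retn* were found in 1.86% of RPR2 and 4.57% of CRPR2 fibroblasts.

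Of 9 classes, all 4 genes were highest in fibroblasts in RPR2, and all but *Itga8* in CRPR2. At least 8-fold more CPM in fibroblasts than in tumor cells was measured for all 4 genes in each section, against 28.8% of panel genes in RPR2 and 33.9% in CRPR2, counted over genes with at least 100 CPM in either class. The genes were selected on a high level in fibroblasts, so nothing is read from that count. *Snai2* in CRPR2 lay nearest to that fold, at 9.06.

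**Figure D1:**
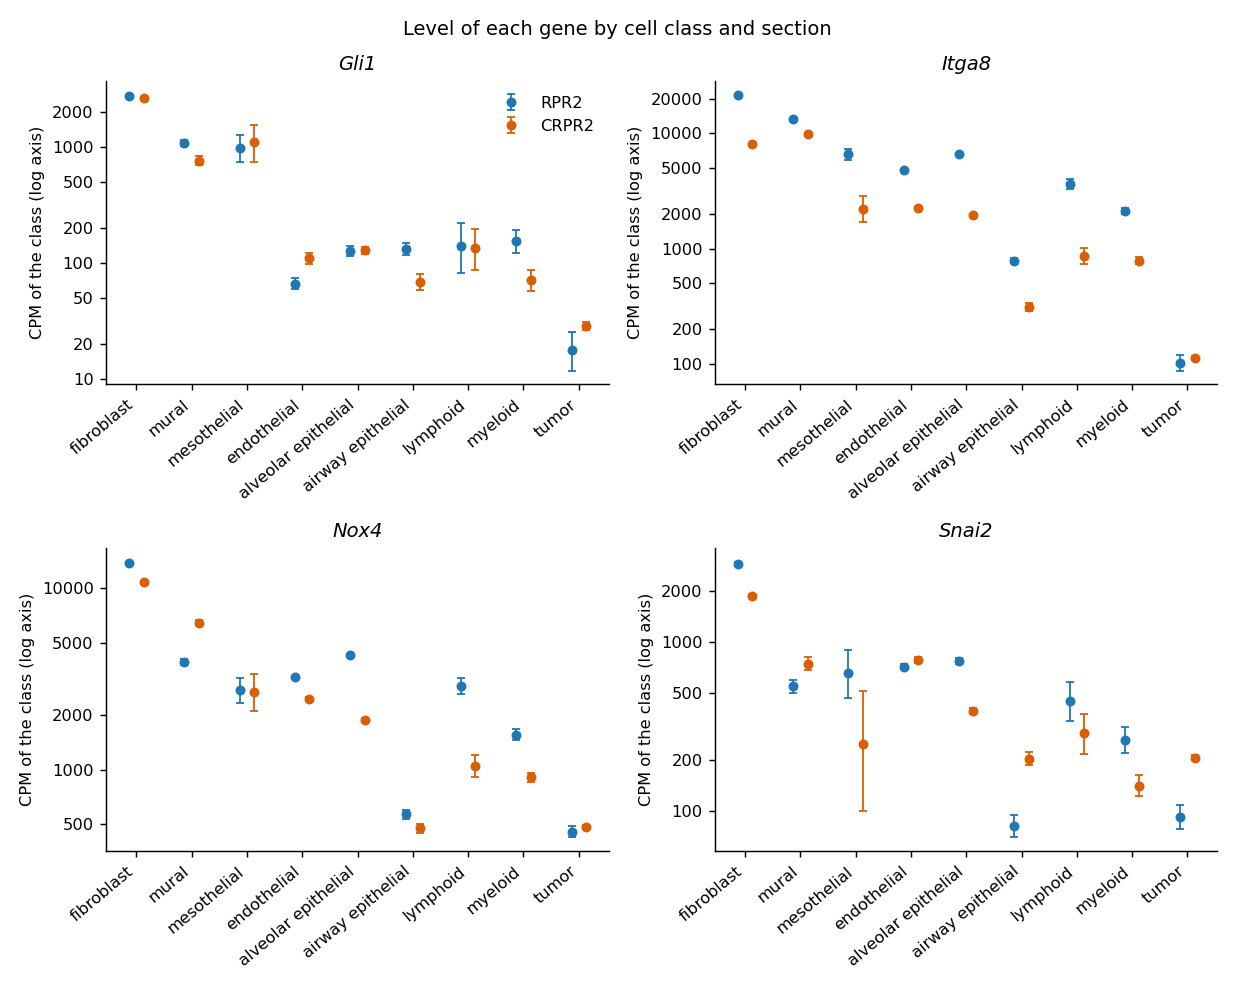
CPM of *Gli1*, *Itga8*, *Nox4* and *Snai2* (log axis) in 9 cell classes of the RPR2 (blue) and CRPR2 (orange) sections. Points are levels summed over all cells of a class and bars are 95% counting intervals. Fibroblasts and tumor cells lie at opposite ends for *Gli1* and *Itga8*, and in CRPR2 mural cells lie above fibroblasts for *Itga8*.

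*Gli1*, a hedgehog transcription factor, reached 2710.0 CPM (2624 to 2798) in RPR2 fibroblasts and 2613 CPM (2541 to 2686) in those of CRPR2. A transcript was found in 19.7% of fibroblasts in each section. Mural cells (1076 and 756 CPM) and mesothelial cells (974 and 1094 CPM) followed, with intervals that overlapped in each section. The remaining classes lay between 17.7 and 155 CPM in RPR2 and between 28.7 and 134 CPM in CRPR2, with tumor cells last. The airway epithelium, a class that should lack *Gli1*, had 131 CPM with 1.25% of cells positive in RPR2, and 68.6 CPM with 0.642% in CRPR2. After each cell was thinned to 50 transcripts, the share of positive cells was 11.0% and 10.4% in fibroblasts and 0.668% and 0.314% in airway cells, at median depths of 103 to 111 transcripts before thinning. Of all *Gli1* transcripts, 57.2% lay in fibroblasts in RPR2 and 61.1% in CRPR2, the highest share of the 4 genes.

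*Itga8*, the integrin, was at 21296 CPM (21055 to 21539) in RPR2 fibroblasts and 8056 CPM (7930 to 8184) in CRPR2 fibroblasts. In mural cells it was at 13292.5 and 9841 CPM. Fibroblasts were thus 1.60-fold above mural cells in RPR2 and 1.22-fold below them in CRPR2. This order depended on the gates. With *Mfap4* left out of the fibroblast markers, fibroblasts were below mural cells in RPR2 too (log2 ratio, -0.23), and with all listed markers kept in the gates, *Acta2* included, they were level in CRPR2 (0.016). The size also depended on the unit. In RPR2 the log2 ratio was 0.26 and 0.059 as shares of cells thinned to 50 and 100 transcripts, and 0.90 as transcripts per cell. In CRPR2 these values were -0.32, -0.31 and -0.07. A share of cells has a ceiling, so for a frequent gene its ratio tends to shrink as more transcripts are drawn. *Itga8* was also broad, with 6615 CPM in RPR2 alveolar epithelial cells and 4809 CPM in endothelial cells, where CRPR2 had 1965 and 2254 CPM. The share of positive fibroblasts was 62.8% in RPR2 and 40.9% in CRPR2 (52.1% and 26.8% after thinning), against 6.82% and 2.90% in airway cells (3.63% and 1.39%).

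Part of the *Itga8* transcripts lay in cells that met no gate. Fibroblasts held 29.0% of them in RPR2 and 33.0% in CRPR2, and cells of no class held 11.6% and 7.56%. These unclassed cells had a median of 58 and 56 transcripts. *Itga8* was at 9906 CPM in those of RPR2, above every class but fibroblasts and mural cells, and at 1080 CPM in those of CRPR2.

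*Nox4*, the oxidase, was at 13868.5 CPM (13674 to 14065) in RPR2 fibroblasts and 10862 CPM (10716 to 11009) in CRPR2 fibroblasts, and a transcript was found in 59.3% and 55.1% of them (43.0% and 36.4% after thinning). In airway cells the shares were 5.21% and 4.41% (2.75% and 2.24%). The class that followed was the alveolar epithelium in RPR2, with 4279 CPM, and mural cells in CRPR2, with 6482 CPM. In RPR2, mural cells had 3927 CPM.

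*Snai2*, the Slug gene, was at 2893 CPM (2804 to 2983) in RPR2 fibroblasts and 1867 CPM (1807 to 1929) in CRPR2 fibroblasts, with 23.0% and 16.6% of cells positive (12.5% and 8.19% after thinning). The class that followed was the alveolar epithelium in RPR2, with 769.6 CPM, and the endothelium in CRPR2, with 781 CPM, whose interval overlapped that of mural cells (744 CPM). In the airway epithelium it was at 81.4 and 204 CPM, with 0.799% and 1.97% of cells positive (0.401% and 0.895% after thinning). A small class of 139 cartilage cells, found in CRPR2 alone, was above fibroblasts, at 3199 CPM.

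Few cells held many transcripts of *Gli1* or *Snai2*. At least 5 were found in 0.248% and 0.292% of fibroblasts for *Gli1*, and in 0.112% and 0.0996% for *Snai2*. For *Itga8*, 21.1% of RPR2 fibroblasts and 4.98% of CRPR2 fibroblasts held at least 5, and the highest counts were 19 and 16 in a cell. For *Nox4* the shares were 8.75% and 5.96%, and the highest counts 13 and 19.

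Between the sections, *Itga8* had the largest difference of the 4 genes in fibroblasts. The log2 ratio of CRPR2 over RPR2 was -1.40 (-1.43 to -1.37) for *Itga8*, -0.63 (-0.70 to -0.57) for *Snai2*, -0.35 (-0.38 to -0.32) for *Nox4* and -0.05 (-0.11 to 0.01) for *Gli1*. Of the 4 genes, 2 (*Itga8* and *Snai2*) were at least 1.5-fold lower in CRPR2, against 14.2% of panel genes. The median panel gene had a log2 ratio of 0.26 in fibroblasts, and relative to it the ratios were -1.67, -0.89, -0.62 and -0.32 in the same order. For *Itga8* the direction was the same under every alternative run (-1.67 to -0.68), and for *Snai2* too (-0.89 to -0.13). *Snai2* was 1.55-fold lower, close to the 1.5-fold line, so its place in the count rested on the gate and unit. It fell short of that line with *Col1a1* or *Mfap4* left out of the fibroblast markers (-0.43 and -0.13) and as transcripts per cell (-0.52). The sign for *Nox4* rested on the gate, since its ratio was 0.17 with *Mfap4* left out of the fibroblast markers and -0.019 with *Col1a1* left out. *Gli1* was at -0.49 and -0.30 under these gates.

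The fibroblast markers themselves moved between the sections. In fibroblasts, *Col1a1* had 32903 CPM in RPR2 against 47762 CPM in CRPR2, *Ccdc80* at 3880.2 and 7284 CPM, *Mfap4* at 36264 and 31014 CPM, and *Pi16* at 11932 and 10293 CPM. Tumor marker transcripts were found in 3.25% of RPR2 and 12.8% of CRPR2 fibroblasts. Without these cells the ratios were -1.37 for *Itga8*, -0.64 for *Snai2*, -0.42 for *Nox4* and -0.10 for *Gli1*. In these cells alone they were -1.24 (-1.36 to -1.11), -0.28 (-0.58 to 0.03), 0.05 (-0.07 to 0.17) and 0.14 (-0.12 to 0.40) in the same order. The part of the marker shifts in the ratios was not tested. Over all cells but tumor cells, which needs no fibroblast gate, the log2 ratios were -1.53 for *Itga8*, -0.63 for *Nox4*, -0.57 for *Snai2* and -0.11 for *Gli1*. That group held fewer endothelial cells in CRPR2 (13.6% against 29.1%) and more cells of no class (28.9% against 12.9%). Lower *Itga8* in CRPR2 was measured in other classes too. Its log2 ratio was -1.75 in alveolar and -1.34 in airway epithelium, -1.56 in mesothelial, -1.09 in endothelial, -2.07 in lymphoid and -1.44 in myeloid cells. In cells of no class it was -3.20, and in tumor cells 0.13 (-0.10 to 0.36). An *Itga8* transcript was found in 20.3% of RPR2 and 5.86% of CRPR2 lymphoid cells. The part of neighboring fibroblasts in the *Itga8* transcripts of other classes was not tested, so these classes may not be independent of the fibroblasts.

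In mural cells the genes differed in both directions. For *Nox4* the levels were 3927 CPM in RPR2 against 6482 CPM in CRPR2 (log2 ratio, 0.72; 0.66 to 0.79) and for *Snai2* 545 against 744 CPM (0.45; 0.26 to 0.64), while *Itga8* was at -0.43 (-0.48 to -0.39) and *Gli1* at -0.51 (-0.67 to -0.35). With *Col1a1* left out of the fibroblast markers, which moves cells between the classes, *Gli1* was at -0.11 (-0.24 to 0.02). The median panel gene was at 0.22. *Nox4* was the 1 gene of the 4 at least 1.5-fold higher in CRPR2, against 31.6% of panel genes, and 0 of the 4 were at least 1.5-fold lower, against 8.54%. Mural cells with more pericyte (*Rgs5*, *Higd1b* and *Ndufa4l2*) than muscle transcripts made up 10.2% of the class in RPR2 and 18.3% in CRPR2. *Nox4* was higher in CRPR2 in these cells (5182 and 8929 CPM) and in those with more muscle transcripts (3715 and 5835 CPM). *Gli1* was not alike in them, with 616 and 911 CPM in the first and 1143 and 726 CPM in the second. The pericyte genes themselves moved unequally. In mural cells *Rgs5* was at 2481 and 10664.5 CPM, *Higd1b* at 3747 and 3875 CPM, and *Ndufa4l2* at 6371 and 5972 CPM. *Rgs5* was also higher in CRPR2 in fibroblasts (428 and 1674 CPM) and tumor cells (101 and 340 CPM). The part of *Rgs5* in this division, and in the levels by it, was not tested.

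Within the fibroblasts, *Gli1* lay at the opposite end from the other 3 genes. Cells were divided by their transcripts of *Pi16*, *Dpt*, *Mfap5* and *Lum*, genes of adventitial fibroblasts that sheathe vessels and airways. Cells with 0 of these (3353 in RPR2 and 3229 in CRPR2) were thus gated by *Col1a1*, *Mfap4* and *Ccdc80* alone. The genes of this division are also gate markers, and the division was set with the levels known.

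**Figure D2:**
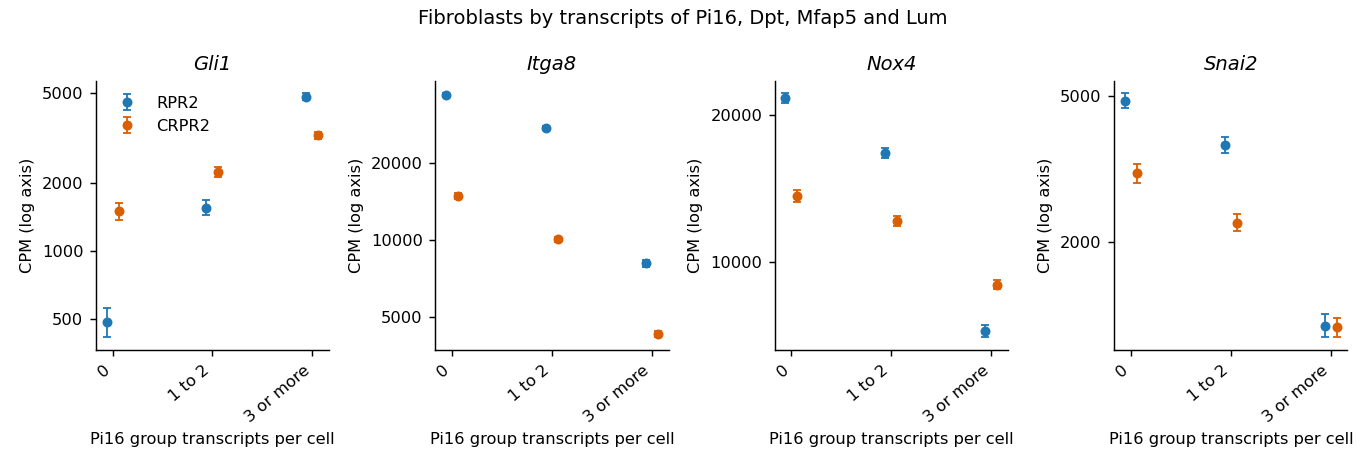
CPM (log axis) in fibroblasts with 0, 1 to 2, or 3 or more transcripts of *Pi16*, *Dpt*, *Mfap5* and *Lum* together, in RPR2 (blue) and CRPR2 (orange), with 95% counting intervals. *Gli1* is highest at 3 or more, the other 3 genes at 0, and the *Gli1* points of the sections cross.

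In RPR2, *Gli1* was at 485 CPM in fibroblasts with 0 transcripts of the *Pi16* group, 1557 CPM with 1 to 2 and 4833 CPM with 3 or more, a 9.96-fold (8.55 to 11.7) span. In CRPR2 it was at 1505 CPM, 2239 CPM and 3259.6 CPM, a 2.17-fold (1.97 to 2.38) span. The log2 ratio of CRPR2 over RPR2 was therefore 1.63 (1.38 to 1.89) at 0 transcripts and -0.57 (-0.64 to -0.50) at 3 or more, beside the near equal level over all fibroblasts. Without *Mfap4* among the markers the first of these was 0.18, and with *Pi16* and *Mfap5* alone as the dividing genes it was 0.75.

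*Itga8* ran from 36615 CPM at 0 to 8105 CPM at 3 or more in RPR2, and from 14779.9 to 4307 CPM in CRPR2, spans of 4.52-fold and 3.43-fold. *Nox4* went from 21673 to 7239 CPM in RPR2 and from 13672 to 9000.0 CPM in CRPR2. *Snai2* went from 4857 to 1183 CPM and from 3082 to 1172 CPM. *Itga8* was lower in CRPR2 at each step, with log2 ratios of -1.31, -1.44 and -0.91. *Nox4* was lower at 0 (-0.66) and higher at 3 or more (0.31). *Snai2* was lower at 0 (-0.66) and at 1 to 2 (-0.70), and its levels were near equal at 3 or more (-0.01; -0.15 to 0.12). At 0 transcripts, 3 of the 4 genes (*Itga8*, *Nox4* and *Snai2*) were at least 1.5-fold lower in CRPR2, against 14.7% of panel genes, where the median panel gene was at 0.61. That count rested on the gate. With *Mfap4* left out of the markers, *Nox4* was at 0.28 (-0.09 to 0.66) and *Snai2* at 0.41 (-0.506 to 1.502) in these cells, and with *Col1a1* left out they were at -0.22 (-0.50 to 0.07) and -0.47 (-1.10 to 0.20). *Itga8* was at -1.25 and -1.03 under these gates.

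Fibroblasts with a *Gli1* transcript held more of the *Pi16* group than those without, 58075 against 24456 CPM in RPR2 and 40496 against 29487 CPM in CRPR2. Those with an *Itga8* transcript held less, 15502 against 63709 CPM in RPR2 and 17048 against 44652 CPM in CRPR2. *Mfap4*, a microfibril gene, went the other way with *Itga8*, at 44653 CPM in positive and 20189 CPM in negative RPR2 fibroblasts and 40287 and 23298 CPM in CRPR2.

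In single RPR2 fibroblasts, *Gli1* was found together with each of the other genes less often than expected. A pair was measured as the number of fibroblasts with both genes over the number expected from the single shares, within 5 strata of total transcripts, so 1 stands for no association. Within a stratum the ratio cannot exceed 1 divided by the share of the more frequent gene. Ratios above 1 thus have a lower ceiling where that gene is frequent. *Gli1* and *Itga8* were both found in 1049 RPR2 fibroblasts, at a ratio of 0.66 (0.62 to 0.70). The ratio was 0.77 (0.73 to 0.82) for *Gli1* and *Nox4* and 0.52 (0.46 to 0.58) for *Gli1* and *Snai2*. In CRPR2 the same pairs were at 1.01 (0.96 to 1.06), 1.20 (1.16 to 1.25) and 1.02 (0.94 to 1.10). Of RPR2 fibroblasts, 42.6% of those with *Gli1* had *Itga8*, against 67.8% of those without. In CRPR2 the shares were 45.5% and 39.7%.

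The 3 pairs without *Gli1* were above 1 in both sections. *Itga8* and *Nox4* were at 1.26 in each, *Itga8* and *Snai2* at 1.35 (1.29 to 1.40) and 1.52 (1.45 to 1.59), and *Nox4* and *Snai2* at 1.31 and 1.26. *Itga8* was found in 62.8% of RPR2 and 40.9% of CRPR2 fibroblasts, so the ceiling of its pair with *Snai2* was lower in RPR2. Of fibroblasts with *Snai2*, 2549 of 2866 had *Itga8* in RPR2 and 1808 of 2665 in CRPR2.

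**Figure D3:**
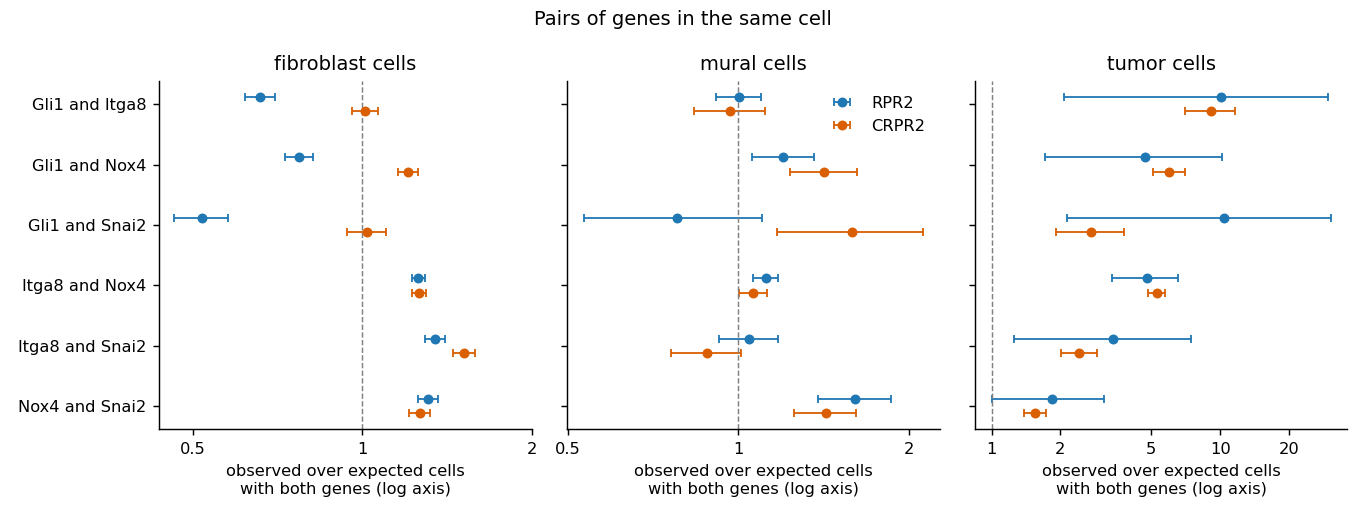
Observed over expected number of cells with both genes of a pair (log axis, dashed line at 1), in fibroblast, mural and tumor cells of RPR2 (blue) and CRPR2 (orange), with 95% counting intervals. Among fibroblasts, the 3 pairs with *Gli1* lie below 1 in RPR2, the others above 1 in both sections, and the tumor axis runs further.

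Within the divisions by the *Pi16* group, *Gli1* and *Itga8* in RPR2 were at 0.87 (0.71 to 1.06) in fibroblasts with 0 transcripts of the group, 0.87 (0.78 to 0.97) with 1 to 2 and 0.89 (0.82 to 0.96) with 3 or more. In CRPR2 the values were 0.93, 1.07 and 1.17. *Gli1* and *Snai2* in RPR2 were at 0.57 (0.37 to 0.84), 0.69 (0.56 to 0.85) and 0.89 (0.78 to 1.03), so at 0 transcripts their ratio lay near that of all fibroblasts. *Gli1* and *Nox4* were at 0.91 (0.74 to 1.12), 0.90 (0.80 to 1.01) and 0.99 (0.92 to 1.06) in RPR2. In CRPR2 this pair was at 1.23, 1.26 and 1.21. *Itga8* and *Snai2* were at 1.05 (0.99 to 1.12), 1.14 and 1.61 in RPR2 and at 1.28, 1.32 and 1.53 in CRPR2. *Itga8* was found in 89.1%, 74.4% and 36.1% of these RPR2 fibroblasts and in 58.7%, 46.8% and 28.2% of those of CRPR2. The ceiling of this pair thus rose across the divisions, and nothing is read from the rise of its ratio.

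In mural cells *Gli1* and *Itga8* were near 1 (1.00 and 0.97), and *Nox4* and *Snai2* were at 1.61 (1.38 to 1.86) in RPR2 and 1.42 (1.25 to 1.61) in CRPR2. *Gli1* and *Nox4* were at 1.20 (1.06 to 1.36) and 1.42 (1.23 to 1.62) there, and *Gli1* and *Snai2* at 0.78 (0.53 to 1.10) and 1.59 (1.17 to 2.11). *Itga8* and *Nox4* were at 1.12 and 1.06, and *Itga8* and *Snai2* at 1.04 (0.92 to 1.18) and 0.88 (0.76 to 1.01).

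**Figure D4:**
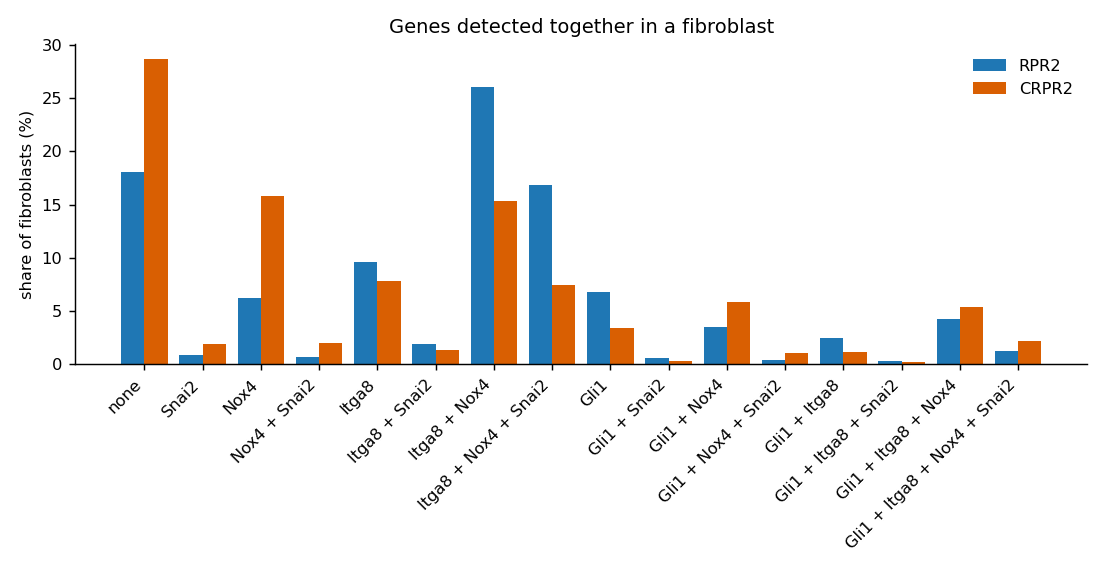
Share of fibroblasts (%) with each combination of detected genes among *Gli1*, *Itga8*, *Nox4* and *Snai2*, in RPR2 (blue) and CRPR2 (orange). *Itga8* with *Nox4* is the most frequent combination in RPR2, at 26.0%, and no gene at all in CRPR2, at 28.6%.

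Of the fibroblasts, 18.0% in RPR2 and 28.6% in CRPR2 had none of the 4 genes, and 1.29% and 2.19% had all. *Itga8* with *Nox4* was the most frequent combination among cells with any of them in RPR2 (26.0%; 15.3% in CRPR2), followed by these genes with *Snai2* (16.9%; 7.47%). In CRPR2, *Nox4* alone was the most frequent (15.8%; 6.21% in RPR2). *Gli1* alone was found in 6.82% and 3.45%, and *Gli1* with *Nox4* in 3.56% and 5.86%.

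Tumor cells were low in all 4 genes. *Gli1* had 17.7 CPM (11.8 to 25.4) in RPR2 and 28.7 CPM (26.3 to 31.2) in CRPR2, from 29 and 536 transcripts. *Itga8* was at 102 and 112 CPM, and *Nox4* at 456 and 483 CPM, near its level in airway cells (568 and 475 CPM). *Snai2* had 92.6 CPM (78.5 to 109) in RPR2 against 206 CPM (200 to 213) in CRPR2 (log2 ratio, 1.15; 0.92 to 1.40). Of the 3 genes with at least 100 CPM in either section, 1 (*Snai2*) was at least 1.5-fold higher in CRPR2, against 17.0% of panel genes, with a median panel gene at 0.013. *Gli1* was below that level in both. Its log2 ratio was 0.70 (0.16 to 1.29) by CPM and -0.47 by the share of cells with 2 or more transcripts. In airway cells *Snai2* also differed, with 81.4 and 204 CPM (log2 ratio, 1.32), and its share of positive tumor cells, 1.02% and 2.25%, was near that of airway cells in each section. Tumor cells, which were many in CRPR2, held 26.6% of all *Snai2* transcripts of that section, more than fibroblasts (25.0%), and 14.9% of those of *Nox4*.

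**Figure D5:**
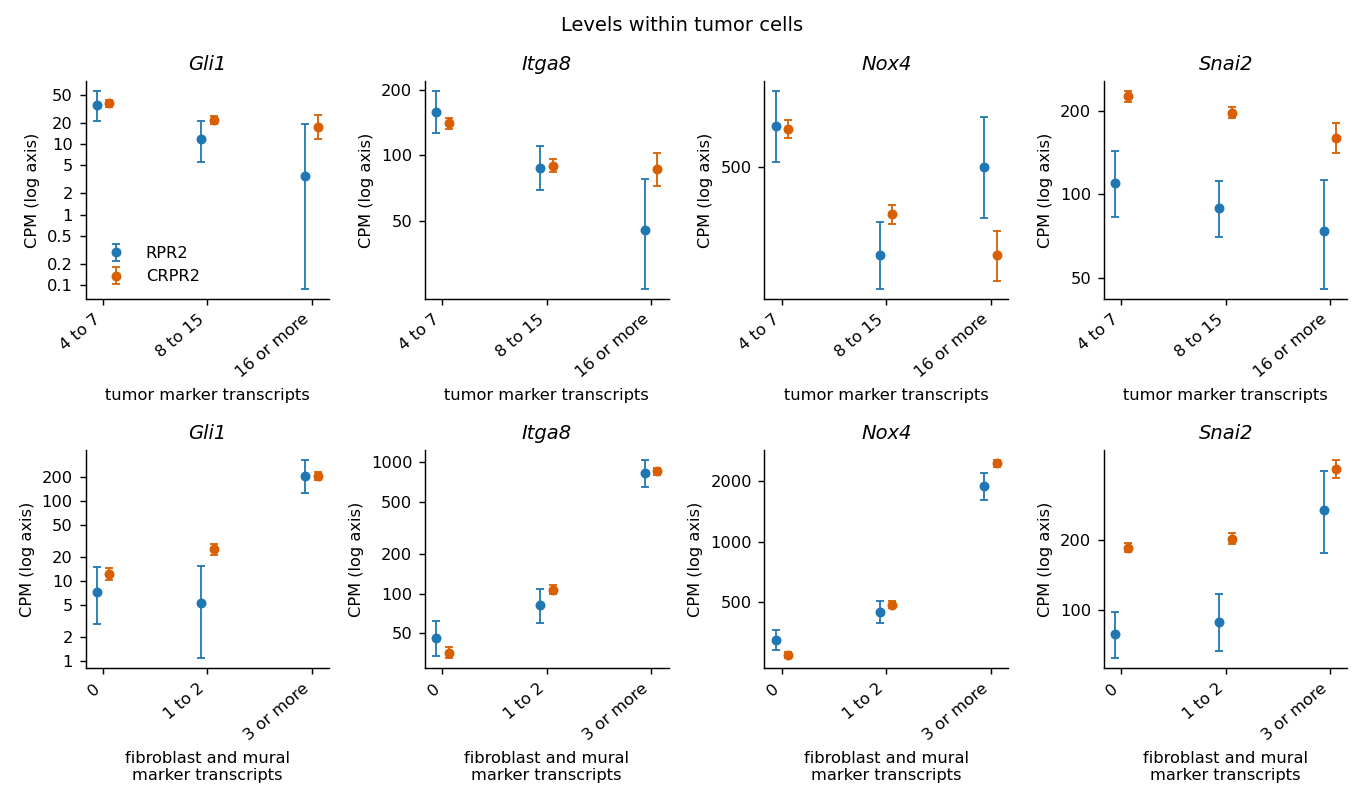
CPM (log axes, scaled by panel) in tumor cells of RPR2 (blue) and CRPR2 (orange), by transcripts of the tumor markers (top) and of the fibroblast and mural markers (bottom), with 95% counting intervals. All 4 genes are highest in tumor cells with 3 or more stromal marker transcripts, and *Snai2* stays higher in CRPR2 in each group.

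Transcripts of fibroblast markers moved with the 4 genes in tumor cells. RPR2 tumor cells with *Gli1* held 496 fibroblast marker transcripts per 100 cells, against 18.1 in those without, and CRPR2 tumor cells 312 against 21.4. For *Itga8* the values were 267 against 16.1 and 253 against 19.6. For *Nox4* they were 106 against 14.6 and 129 against 17.1, and for *Snai2* 94.3 against 18.1 and 65.1 against 21.3. Mural markers differed less, at 3.84-fold and 3.30-fold for *Gli1* and 1.63-fold and 1.58-fold for *Snai2*. For *Snai2*, endothelial markers were at 2.08-fold and 1.94-fold. These are counts per cell, and cells with a gene also had more transcripts in total (for *Snai2*, medians of 130 against 111 and 129 against 108). The part of neighboring stromal cells in these transcripts was not tested, and positions of cells were not used here.

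In the 8843 RPR2 and 105273 CRPR2 tumor cells with 0 fibroblast or mural marker transcripts, *Gli1* was at 7.18 CPM (2.89 to 14.8) and 12.1 CPM (10.2 to 14.3), a level that its interval in RPR2 does not tell from the highest negative control probe. *Itga8* was at 46.2 and 35.8 CPM and *Nox4* at 325 and 272 CPM. *Snai2* was the least reduced, at 78.0 CPM (61.5 to 97.6) and 186 CPM (178 to 194), with a log2 ratio of 1.25 (0.92 to 1.60). From these cells to those with at least 3 stromal marker transcripts, the level of *Snai2* was 3.48-fold higher in RPR2 and 2.20-fold in CRPR2, and that of *Itga8* 17.9-fold and 23.8-fold. With more tumor marker transcripts, *Snai2* went from 110 (82.6 to 143) to 73.5 CPM (45.5 to 112) in RPR2, with intervals that overlapped. In CRPR2 it went from 225 (215 to 236) to 160 CPM (140 to 181). The tumor marker transcripts are part of the total behind CPM. Its share of positive cells rose instead, from 0.924% to 1.23% and from 2.06% to 3.01%, in cells with more transcripts in total.

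In tumor cells, *Gli1* and *Itga8* had an observed over expected ratio of 10.1 (2.08 to 29.5) in RPR2, from 3 cells, and 9.07 (6.99 to 11.6) in CRPR2, from 64 cells. *Nox4* and *Snai2* were nearest to 1, at 1.85 (1.01 to 3.10) and 1.55 (1.38 to 1.74). In CRPR2 tumor cells with 0 stromal marker transcripts, *Gli1* and *Itga8* were together in 1 cell, against 0.54 expected (ratio, 1.84; 0.047 to 10.3). In the same cells *Itga8* and *Nox4* were at 3.27 (2.33 to 4.47) and *Gli1* and *Nox4* at 2.53 (1.22 to 4.66). *Nox4* and *Snai2* were at 1.31 (1.04 to 1.63), *Itga8* and *Snai2* at 1.16 (0.56 to 2.13) and *Gli1* and *Snai2* at 0.36 (0.0092 to 2.03).

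The panel held few other genes of these pathways. Of 13 hedgehog genes listed it held *Ptch1*, the receptor and a target of *Gli1*, at 5416 and 4811 CPM in fibroblasts (log2 ratio, -0.17). *Ptch1* was found together with *Gli1* more often than expected in fibroblasts of both sections, at 1.18 (1.12 to 1.25) in RPR2 and 1.40 (1.33 to 1.46) in CRPR2. *Ptch1* was broad. It was also in tumor cells, at 3414 and 2732 CPM, where *Gli1* was nearly absent, and in RPR2 pericyte-gene mural cells, at 12907 CPM (5718 CPM in those of CRPR2). That group was set in part by *Rgs5*, whose level differed between the sections. Alveolar epithelial cells had 3507 and 2460 CPM, and endothelial cells 2757 and 2358 CPM.

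Of the listed genes of EMT and TGF-beta, 5 are described here. In fibroblasts, *Twist1*, an EMT transcription factor, was at 156 and 328 CPM (log2 ratio, 1.07). It was at least 1.5-fold higher in CRPR2, as were 37.7% of panel genes and 0 of the 4 genes, and none of the 5 was at least 1.5-fold lower. *Snai1*, the relative of *Snai2*, was at 3816 and 3929 CPM (0.04), the protease *Mmp2* at 11036 and 11544.5 CPM (0.06), the inhibitory *Smad7* at 3701 and 3168 CPM (-0.22) and the epithelial cadherin *Cdh1*, which Slug represses, at 1629.99 and 1805 CPM (0.15). *Cdh1* was at 20656.5 and 20725 CPM in tumor cells (0.005). Of 6 oxidase genes the panel held *Cybb*, the oxidase of phagocytes, at 1232 and 3508 CPM in fibroblasts (1.51). Higher *Cybb* in CRPR2 was measured in other classes too, at 2.15 in endothelial, 1.67 in mural, 1.48 in alveolar epithelial and 0.28 in tumor cells. The part of neighboring cells in these levels was not tested.

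Profiles over 9 classes of both sections (18 points, which share libraries and depth within a section) were compared as log2(CPM + 10). *Gli1* was most like *Mfap5* (Pearson's r = 0.93), *Col1a1* (0.92) and *Htra3* (0.90), a secreted protease, where the first 2 are markers of the gate. *Itga8* was most like *Fxyd1* (0.97), *Sod3* (0.97), the extracellular superoxide dismutase, and *Mylk* (0.96), the kinase of myosin light chains. *Nox4* was most like *Itga8* (0.93), *Snai1* (0.93) and *Mfap4* (0.93), and *Snai2* most like *Snai1* (0.93), *Nox4* (0.92) and *Mfap4* (0.84). *Mfap4* is a marker of the gate too. Since the 4 genes were selected on a high level in fibroblasts, likeness to each other and to fibroblast genes is described here and supports nothing. Of the 4 genes, *Gli1* and *Snai2* were the least alike (0.69).

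Among fibroblasts, those with *Gli1* were set apart by *F3*, the gene of tissue factor, at 6669 CPM against 1879 CPM in RPR2 and 4078 against 1731 CPM in CRPR2. *Iyd* (3.41-fold and 2.20-fold) and *Pi16* (3.44-fold and 1.97-fold) followed. Those with *Itga8* held more *Ager*, the marker of alveolar type 1 cells (3.95-fold and 3.73-fold), *Snai2* (5.28-fold and 3.16-fold) and *Mettl7a2* (4.74-fold and 2.90-fold). *Nox4* fibroblasts held more *Itga8* (3.64-fold and 2.76-fold), *Car2* (3.07-fold and 2.46-fold) and *Snai2* (3.66-fold and 2.45-fold), and *Snai2* fibroblasts more *Itga8* (2.04-fold and 2.38-fold), *Etv1* (1.97-fold and 1.92-fold) and *Mettl7a2* (1.91-fold and 2.01-fold). The part of alveolar neighbors in the *Ager* transcripts was not tested.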

How the data were processed

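The authors deposited transcript counts per gene and segmented cell for each section, without normalization. Per the paper's methods, cells were segmented by nuclear expansion and images processed in Xenium Explorer, and the labels name Seurat 4.4.0. Cells with at least 20 gene transcripts were kept (152915 in RPR2 and 340609 in CRPR2). A class other than tumor cells needed 4 transcripts from at least 2 of its markers, and more than of any other list. Tumor cells needed 4 transcripts of their list without these 2 rules, and took precedence. *Acta2*, *Krt19*, *Sox9* and *Vwf* were left out of the gates, and cells with 2 transcripts of 5 striated muscle genes out of the classes, after their levels had been seen. Doublets were not called. Segmentation can assign a transcript to a neighboring cell, and the part of this in low levels was not tested.

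Intervals at 95% are exact Poisson (CPM), exact binomial (shares) and exact conditional (ratios), and cover counting error only. Thinned shares are exact means over all draws of 50 transcripts. Scripts used Python 3.11.15, numpy 2.4.6, scipy 1.17.1 and pandas 2.3.3, and were tested on simulated data. The genes named beside the 4 are those of the pathway lists and, for each of the 4, the 3 most like it in profile and the 3 most raised in fibroblasts that hold it, among genes with at least 100 CPM. The 4 genes, the lists and the rules were chosen with earlier results of these data known. The scRNA-seq data and cell positions were not used here. A gene of the pathway lists is not reported here. Alternatives changed the cell filter, gates, unit, strata and thinning.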

Additional observations from a re-analysis of the deposited data

Results flagged for a closer look

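Some pairs of values lay on opposite sides of no difference, each beyond its counting interval, with 1 section behind each. The difference within each pair was not tested. The log2 ratio of fibroblasts over mural cells for *Itga8* was 0.68 in RPR2 and -0.29 in CRPR2. The log2 ratio of CRPR2 over RPR2 for *Nox4* was -0.35 in fibroblasts and 0.72 in mural cells, and that for *Snai2* was -0.63 and 0.45. Between fibroblasts with 0 and with 3 or more transcripts of the *Pi16* group, the ratio was 1.63 and -0.57 for *Gli1*, and -0.66 and 0.31 for *Nox4*. The opposite signs for *Nox4* rested on the gate, since the first value was 0.28 (-0.09 to 0.66) with *Mfap4* left out of the fibroblast markers and -0.22 (-0.50 to 0.07) with *Col1a1* left out. For *Gli1* the first value was 0.18 (-0.56 to 1.01) without *Mfap4*. Over all fibroblasts *Nox4* was at 0.17 without *Mfap4* and -0.019 without *Col1a1*, and *Itga8* in RPR2 fibroblasts over mural cells at -0.23 without *Mfap4*. *Snai2* in all fibroblasts was at -0.13 without *Mfap4*. *Gli1* and *Nox4* had an observed over expected ratio in fibroblasts of 0.77 in RPR2 and 1.20 in CRPR2.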

How the results depend on the processing

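With 1 section per genotype, no value has a replicate check, and counting intervals are narrow, so a value can leave its interval through a small change. Of 472 values under the alternatives listed first, 326 stayed within the counting interval, 145 moved and 1 was reversed. Of 168 under alternatives chosen after seeing the data, the numbers were 101, 62 and 5. A reversed value lay on the other side of no difference, whatever its new interval. Alternatives that use shares of cells, transcripts per cell or the median panel gene change the unit itself. Moves under them follow in part from that change and are within these counts. The 29 *Gli1* transcripts of RPR2 tumor cells limit the precision there.

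Some of the values that left their interval follow, as log2 ratios of CRPR2 over RPR2 in fibroblasts unless stated. Others that moved, as in mural cells and for other pairs, are left out. The cause was not tested. With *Col1a1* left out of the markers, *Gli1* was at -0.30, *Itga8* at -1.21, *Nox4* at -0.019, *Snai2* at -0.43 and the *Gli1* and *Itga8* pair in RPR2 at 0.70. With *Mfap4* left out, *Nox4* was reversed (0.17), *Gli1* was at -0.49, *Itga8* at -1.10, *Snai2* at -0.13 and the pair at 0.79 in RPR2 and 1.13 in CRPR2. This gate also reversed *Nox4* (0.28) and *Snai2* (0.41) in fibroblasts without the *Pi16* group, though both counting intervals held no difference. It reversed *Itga8* in RPR2 fibroblasts over mural cells too (-0.23). With all listed markers, that ratio crossed no difference in CRPR2 by a small margin (0.016). Without cells that held a tumor marker transcript, *Itga8* was at -1.37 and *Nox4* at -0.42. At a gate of 6 transcripts they were at -1.34 and -0.31, and without cells with fat cell genes at -1.35 and -0.32. A tumor gate of 2 gave -0.39 for *Nox4*. Relative to the median panel gene the ratios were -0.32, -1.67, -0.62 and -0.89 for *Gli1*, *Itga8*, *Nox4* and *Snai2*. Per cell they were 0.057, -1.29, -0.24 and -0.52. As thinned shares, *Itga8* was at -1.12, -0.96 and -0.68 and *Nox4* at -0.28, -0.24 and -0.16 for 30, 50 and 100 transcripts, and *Gli1* at -0.12 for 30 and 0.048 for 100. With cells positive at 2 transcripts, *Gli1* was at 0.13, *Itga8* at -1.11, *Nox4* at -0.20, and in tumor cells *Snai2* was at 0.68 and *Gli1* reversed (-0.47). The pair was at 0.54 in RPR2 and 0.93 in CRPR2 after thinning, and at 1.11 in CRPR2 without strata. No paired analysis was possible because each genotype has 1 section.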
